A study of Homo sapiens with 372 samples.

Results

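The proteasome genes were examined in single A2780 cells, an established human ovarian cancer cell line, across an untreated control and 5 drug treatments. The members were chosen by name, as the rows whose symbol starts with PSM, a letter from A to G and a digit. This gave 45 of 9664 genes listed, of which 44 encode proteasome subunits, activators, an inhibitor or assembly factors. The remaining 1, PSMC3IP, is a recombination protein that only shares the start of the name, and it was kept apart. Of 48 proteasome symbols looked for, PSMA8, PSMB8, PSMB9 and PSMB11 were not analysed here. All 44 proteasome genes were detected in more than 30% of cells in 1 or more conditions, 32 in over 95% of the cells of all 6 conditions, and 15 in every cell.

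The 6 conditions were untreated control (46 cells), 5 nM paclitaxel for 16 h (56 cells) and 48 h (53 cells), 75 µM celecoxib for 2 h (63 cells) and 16 h (61 cells), and both drugs together for 16 h (59 cells). Paclitaxel stabilizes microtubules and celecoxib inhibits cyclooxygenases. Cells were sorted on a microfluidic capture system and full-length polyA-tailed RNA of each cell was sequenced. The number of captures or cultures behind a condition was not given in the sources used here and none was named as a replicate, so each condition counts as 1 sample and cells gave no test, SE or p-value here. SD values below are spreads over cells, and the condition, any capture or culture behind it and mostly the block of 96 library numbers cannot be told apart. The deposited E-value is log2(N/10 + 1), where N is the length-corrected abundance (TPM) of a gene after scaling to a spike-in RNA added to every cell. E-values therefore also carry the total RNA of a cell, and differences were given again after each cell was scaled to the same total.

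The proteasome degrades proteins that carry ubiquitin chains. Its core particle is a barrel of stacked alpha and beta rings, with the proteolytic sites inside the beta rings. The regulatory particle caps the barrel: its base holds a ring of ATPases that unfold substrates and push them inward, and its lid removes the ubiquitin chain. Interferons replace the catalytic beta subunits by inducible counterparts, such as PSMB10, and raise the activator subunits PSME1 and PSME2, which form an alternative cap. When proteasome activity falls, the transcription factor NFE2L1 is known to raise the subunit genes together through the antioxidant response element. The proteasome is of interest in cancer since tumour cells with a high load of misfolded proteins depend on it.

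Promoter sequences are shown for the interferon-inducible members PSME1, PSME2 and PSMB10, and for PSMB3, a ring subunit that moved with most members. The values of the interferon-inducible members did not move as a group. With celecoxib for 2 h, at the same total, PSME1 differed from control by 0.74 and PSMB10 by -1.33. With paclitaxel for 16 h PSMB10 (-0.32) lay near the median of all members (-0.34). They are RefSeq windows on GRCh38.p14, 5′ to 3′ of the gene, from 250 bases before the RefSeq start to 20 bases after it. Capitals mark the motifs found on either strand. These are TGACNNNGC (the core of the antioxidant response element), the core of the interferon-stimulated response element (ISRE core, which is GAAA, any pair of bases and GAAA), CCAAT and CACGTG. The positions are chr14:24135944-24136213 (plus strand) for PSME1, chr14:24146591-24146860 (minus strand) for PSME2, chr16:67936831-67937100 (minus strand) for PSMB10 and chr17:38752491-38752760 (plus strand) for PSMB3.
PSME1: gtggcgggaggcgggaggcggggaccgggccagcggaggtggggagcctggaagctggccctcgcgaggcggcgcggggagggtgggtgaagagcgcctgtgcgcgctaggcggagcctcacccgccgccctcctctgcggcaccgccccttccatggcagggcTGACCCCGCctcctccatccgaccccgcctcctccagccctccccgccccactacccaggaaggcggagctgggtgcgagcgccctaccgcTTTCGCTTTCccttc
PSME2: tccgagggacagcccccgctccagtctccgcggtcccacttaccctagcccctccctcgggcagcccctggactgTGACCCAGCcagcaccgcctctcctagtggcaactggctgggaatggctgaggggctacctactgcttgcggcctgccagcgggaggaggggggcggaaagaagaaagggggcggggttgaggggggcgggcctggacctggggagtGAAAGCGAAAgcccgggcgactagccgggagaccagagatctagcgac
PSMB10: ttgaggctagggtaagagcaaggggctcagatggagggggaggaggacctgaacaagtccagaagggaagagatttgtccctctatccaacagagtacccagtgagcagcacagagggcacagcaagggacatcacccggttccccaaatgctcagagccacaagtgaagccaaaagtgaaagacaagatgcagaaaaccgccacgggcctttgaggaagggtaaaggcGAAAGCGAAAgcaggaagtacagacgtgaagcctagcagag
PSMB3: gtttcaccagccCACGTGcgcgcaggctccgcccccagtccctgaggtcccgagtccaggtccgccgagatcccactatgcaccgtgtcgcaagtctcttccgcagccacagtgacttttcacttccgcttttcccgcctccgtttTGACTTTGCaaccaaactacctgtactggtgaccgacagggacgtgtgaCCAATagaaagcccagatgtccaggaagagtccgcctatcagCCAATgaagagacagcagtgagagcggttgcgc

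PSME2, PSMB10 and PSME1 all held the ISRE core close to the start, at bases -28 to -19, -21 to -12 and 5 to 14, counted with the first transcribed base as 0. In PSME1 it lay on the opposite strand. Of the 44 members, 38 had a RefSeq promoter, with 46 windows of 300 bases between them. The ISRE core was in 6 of these 46 windows (13.0%), against 3.57% of all 35116 promoter windows. The other carriers were PSMA4, PSMB4 and PSMG4, and this motif was added after the sequences had been seen. TGACNNNGC was in 14 windows (30.4%), against 13.3% of all. CCAAT was in 18 (39.1%, against 34.6%), CACGTG in 3 (6.52%, against 7.26%), TTCNNNGAA in 6 (13.0%, against 7.66%) and TGACGTCA in 0 (against 1.85%). Such a match describes letters and is not evidence of a bound factor.

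The cells differed in depth and in total RNA, which bears on every value below. The median number of genes detected was 6630 in control cells and between 6126 and 6351 in the treatments. The median summed N per cell, on the log2 scale against the control median, was -0.99 and -0.64 with paclitaxel for 16 and 48 h, -0.76 and -1.52 with celecoxib for 2 and 16 h, and 0.49 with the combination. One control cell carried the suppressive state in the authors' annotation and had 4746 genes detected, and 1 of the 59 combination cells carried that state too. Leaving out both changed no count of members past the limit by over 1.5 times. Of 10 carcinoma markers looked for, KRT18 and VIM were listed, with mean E-values between 0.45 and 1.11 and between 1.90 and 3.70. Of 4 leukocyte markers LYZ was listed (0.11 to 0.24), and of 3 fibroblast markers COL1A2 (0.20 to 0.96). Neither endothelial marker was listed, and neither were the defining leukocyte marker PTPRC and the carcinoma markers EPCAM, CDH1 and KRT8. LYZ was detected in 37.0 to 60.7% of the cells of a condition and KRT18 in 23.9 to 36.5%.

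In control cells the proteasome genes were abundant, and the core particle was ahead of its cap. The median over the 44 members of the mean control E-value was 5.73, against 1.45 over the 9655 genes tested. The scale is per transcript length, so that N can be compared between genes. The 3 catalytic subunits had a mean N of 3609 per gene, the 4 other beta subunits 1982 and the 7 alpha subunits 1801, whereas the 6 base ATPases had 653 and the 8 lid subunits 555. The most abundant member was PSMB5, which carries the chymotrypsin-like site, with a mean control N of 5369. It was 16th of all genes by this level. PSME4, an activator linked to degradation of acetylated histones, was the least abundant at 33.4, and PSMB5 exceeded it 161-fold. PSMB1 led the other beta subunits (3369), PSMA7 the alpha ring (2663), PSME2 the activators (1645) and PSMC2 the ATPases (991). PSMD4, a ubiquitin receptor of the base, stood at 1726, PSMD13 led the lid at 942, PSMG1 the core assembly chaperones at 633 and PSMD9 the base assembly chaperones at 413.

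The proteasome took a smaller share of the transcript total in every treatment than in control cells. This share is the summed N of the 44 members in a cell as a percentage of that of the 9664 genes listed. It does not depend on the spike-in. Its median was 3.18% in control cells (SD over cells 0.399, range 2.24 to 3.81). It was 2.84% (SD 0.417) at 16 h and 2.34% (SD 0.365) with paclitaxel for 48 h, 2.35% (SD 0.238) at 2 h and 1.93% (SD 0.268) with celecoxib for 16 h, and 2.34% (SD 0.317) with the combination. The share was below the control median in 47 of 56, 53 of 53, 63 of 63, 61 of 61 and 59 of 59 cells in that order. With celecoxib for 16 h, 52 of 61 cells lay below the lowest control cell, against 6, 20, 17 and 22 cells in the other treatments. The lowest share was thus found with celecoxib for 16 h, and the combination, which contained the same drug for the same time, lay near the 2 h value. Within a condition the share was only weakly related to the number of genes detected, with Pearson's r between -0.22 and 0.33 over the cells of 1 condition.

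**Figure D1:**
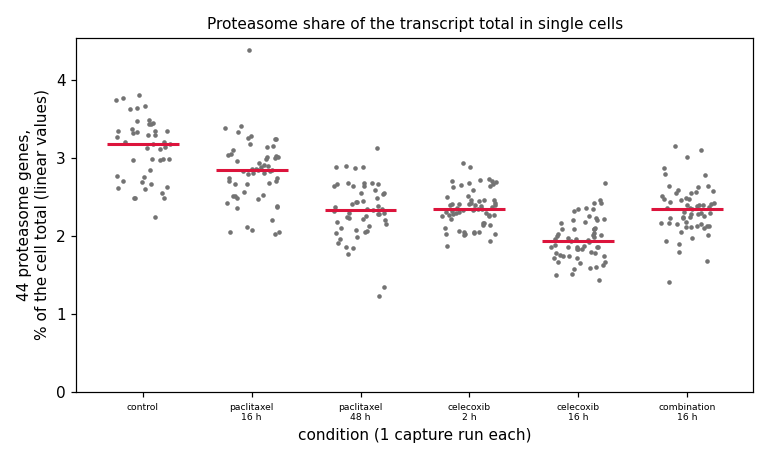
Each point is 1 cell and the line is the median of a condition. The y axis is the summed linear value of the 44 proteasome genes as a percentage of the cell total over the genes listed. Medians are 3.18% in control cells, 1.93% with celecoxib for 16 h and between 2.34 and 2.84% in the other treatments. The axis words on 1 capture run each are an assumption, as the number of captures was not given in the sources used here.

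On the deposited scale nearly all members were lower with either drug alone, and 4 were higher with the combination. Up and down mean a mean E-value that differed from control by over log2 of 1.5 (0.585), with no test. All 5 comparisons share the same control cells, and where 5 differences of a gene or list follow each other below, they stand in the order paclitaxel for 16 and 48 h, celecoxib for 2 and 16 h, and combination. With paclitaxel for 16 h 40 of 44 members were down, against 37.3% of all genes tested, and 0 were up (0.0932%). At 48 h 41 were down (26.6%) and 0 up (0.922%). With celecoxib for 2 h 41 were down (25.7%) and 0 up (1.12%), and after 16 h all 44 were down (43.9%) and 0 up (0.383%). With the combination 0 were down (1.76%) and 4 up (30.4%). With linear means 11 members were up, against 6968 of the 9655 genes tested. In the cells of library block 1 alone 7 were up, where the share of all genes was not computed. The median differences of the members were -1.13, -1.14, -1.07, -2.07 and 0.16, beside -0.41, -0.26, -0.26, -0.48 and 0.33 over all genes tested. Abundant genes pass such a limit more easily than genes near the pseudocount, and ratios of linear means are free of this. On that log2 scale the members' medians were -0.98, -1.07, -1.05, -2.06 and 0.30, beside -0.72, -0.50, -0.43, -1.09 and 0.93 over all genes. The members thus lay below the median of all genes in every treatment, the combination included.

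At the same total per cell, fewer members passed the limit, and those that did were mostly lower. With paclitaxel for 16 h 14 were down (10% of all genes tested) and 0 up (1.4%), with a median of -0.34 beside -0.07 over all genes. At 48 h 17 were down (5.78%) and 1 up (3.28%), with a median of -0.53 beside 0.00. With celecoxib for 2 h 18 were down (8.12%) and 1 up (3.31%), with a median of -0.51 beside -0.02. After 16 h 31 were down (7.95%) and 1 up (7.37%), with a median of -0.70 beside 0.03. With the combination 17 were down (5.8%) and 0 up (5.96%), with a median of -0.48 beside 0.02. The single member up was PSME1 in each of the 3 comparisons.

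**Figure D2:**
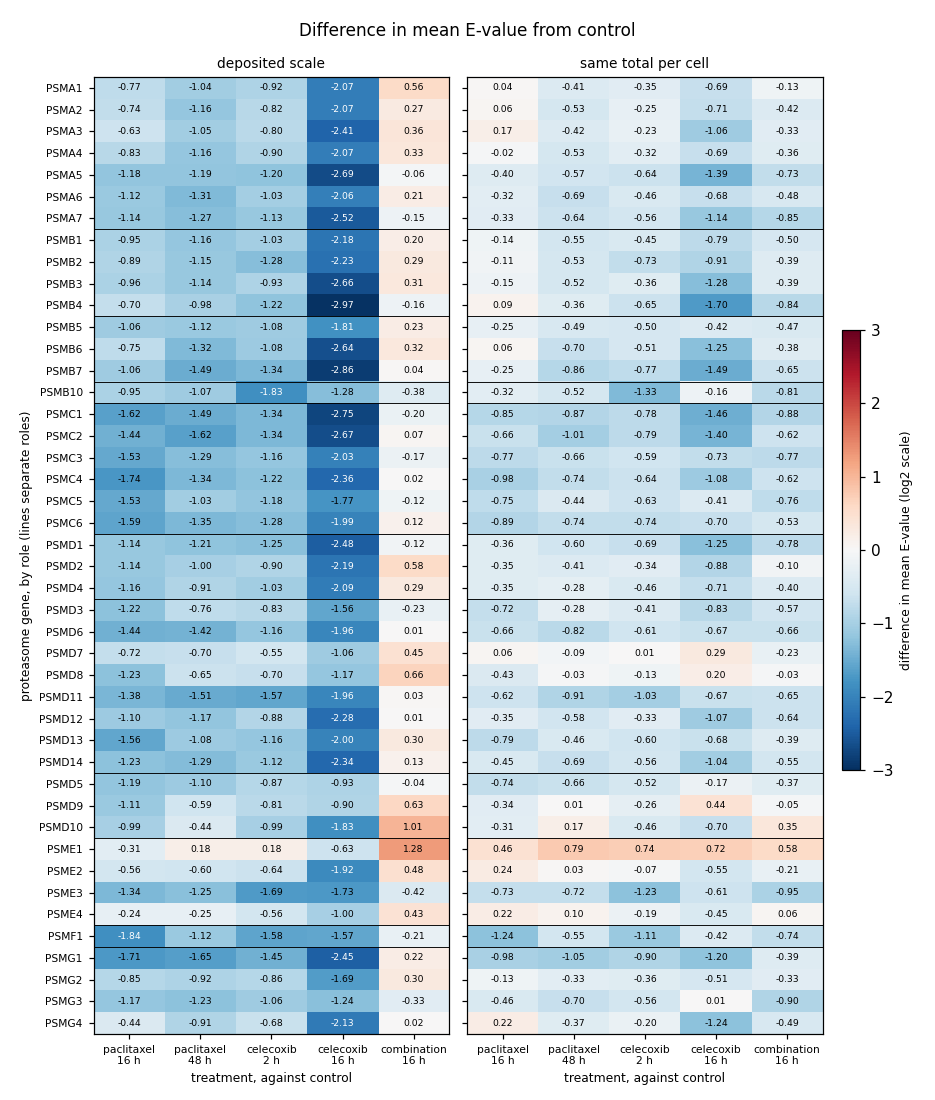
Each cell of the heat map is the difference in mean E-value from control (log2 scale) of 1 of the 44 members in 1 treatment, as deposited (left) and with cell totals equalized (right), with lines between roles. Celecoxib for 16 h holds the lowest values (down to -2.97 for PSMB4), and PSME1 is above 0 in all 5 columns on the right.

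The alpha and beta rings split the treatments. All 14 ring subunits other than PSMB10 were down on the deposited scale in each of the 4 single-drug conditions, against 37.3, 26.6, 25.7 and 43.9% of all genes tested. With cell totals equalized, 0 of 14 were down with paclitaxel for 16 h (median -0.12), 4 at 48 h (-0.53), 4 with celecoxib for 2 h (-0.48), 13 after 16 h (-0.99) and 4 with the combination (-0.45), against 10, 5.78, 8.12, 7.95 and 5.8% of all genes tested. The alpha ring, which gates entry to the barrel, had a median of -0.02 with paclitaxel for 16 h and -0.71 with celecoxib for 16 h, where all 7 alpha subunits were down. PSMA5 had the largest alpha ring difference there, -2.69 (-1.39 at the same total). For PSMA7 the mean E-value was 7.95 in control cells, then 6.81 and 6.68 with paclitaxel, 6.82 and 5.43 with celecoxib and 7.80 with the combination.

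The beta subunits PSMB4 and PSMB7 had the largest differences of all members with celecoxib for 16 h. PSMB4, a structural subunit, had a mean E-value of 6.60 in control cells, 5.89 and 5.61 with paclitaxel for 16 and 48 h, 5.38 and 3.63 with celecoxib for 2 and 16 h, and 6.44 with the combination. Its lowest, median and highest cells were 4.95, 6.57 and 7.66 in control and 0.00, 3.88 and 5.67 with celecoxib for 16 h, so that the ranges overlapped between 4.95 and 5.67. The difference was -2.97, and -1.70 at the same total. All 61 of these cells were below the control mean on both scales. PSMB7, which carries the trypsin-like site, went from a control mean of 7.47 to 4.61 (difference -2.86, or -1.49 at the same total). Its cells ran from 4.89 over 7.46 to 8.77 in control and from 2.33 over 4.72 to 5.90 with celecoxib for 16 h, and all 61 were below the control mean on both scales.

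The 3 constitutive catalytic subunits had unequal differences with celecoxib for 16 h. PSMB6, which carries the caspase-like site, differed by -2.64 and PSMB5 by -1.81 on the deposited scale, and by -1.25 and -0.42 at the same total. PSMB5 had mean E-values of 8.94 in control cells, 7.89 and 7.83 with paclitaxel, 7.87 and 7.13 with celecoxib, and 9.18 with the combination. Within a cell PSMB5 made up a median of 11.4% of the members' sum in control cells and 13.4% with celecoxib for 16 h, whereas PSMB7 made up 3.92% and 2.43% and PSMB4 2.14% and 1.43%. Other conditions left the catalytic subunits closer together, with deposited differences of -1.06 (PSMB5), -0.75 (PSMB6) and -1.06 (PSMB7) with paclitaxel for 16 h, and -1.12, -1.32 and -1.49 at 48 h. With celecoxib for 2 h they were -1.08, -1.08 and -1.34, and with the combination 0.23, 0.32 and 0.04.

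PSMB10, the inducible counterpart of PSMB7, was scarce and had its lowest level at the early celecoxib time. Its mean E-value was 3.81 in control cells, 2.87 and 2.75 with paclitaxel for 16 and 48 h, 1.98 and 2.53 with celecoxib for 2 and 16 h, and 3.43 with the combination. It was detected in 45 of 46, 48 of 56, 48 of 53, 42 of 63, 54 of 61 and 47 of 59 cells in that order. The share of 66.7% with celecoxib for 2 h has an exact 95% binomial interval of 53.7 to 78.0%, and the control share of 97.8% one of 88.5 to 99.9%. These intervals cover counting error over cells only. The median cell had 3.96 in control (range 0.00 to 5.62) and 2.48 with celecoxib for 2 h (0.00 to 4.52), with wide overlap. The difference at 2 h was -1.83, the largest of all members in that comparison, or -1.33 at the same total.

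With celecoxib for 16 h PSMB10 and its constitutive counterpart had unequal differences. Against the total PSMB10 differed by -0.16 there and PSMB7 by -1.49. The ratio of the mean N of PSMB10 to that of PSMB7 was 8.32% in control cells, 10.3 and 11.3% with paclitaxel, 6.66 and 25.1% with celecoxib for 2 and 16 h, and 8.96% with the combination. Against the 3 constitutive catalytic subunits together it was 1.52, 1.67, 1.67, 1.07, 2.78 and 1.43%. The highest ratio was therefore found with celecoxib for 16 h, and with PSMB8 and PSMB9 not analysed here it describes PSMB10 alone.

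The 6 base ATPases were lower than the rings with paclitaxel for 16 h. All 6 were down there on both scales (37.3 and 10% of all genes tested), with a median of -1.56, or -0.81 at the same total, where the rings had a median of -0.12. PSMC4 had the largest ATPase difference, -1.74 and -0.98. Its mean E-value was 5.52 in control cells, 3.79 and 4.18 with paclitaxel for 16 and 48 h, 4.30 and 3.16 with celecoxib for 2 and 16 h, and 5.54 with the combination. The median control cell stood at 5.70 (range 0.00 to 7.20) and the median cell with paclitaxel for 16 h at 3.88 (0.00 to 6.33), and 53 of 56 cells were below the control mean. In the other comparisons at the same total, 5 of the 6 ATPases were down with paclitaxel for 48 h, 6 with celecoxib for 2 h, 5 with celecoxib for 16 h and 5 with both drugs, against 5.78, 8.12, 7.95 and 5.8% of all genes tested. PSMC1 and PSMC2 had the largest ATPase differences with celecoxib for 16 h, -2.75 and -2.67, and PSMC5 the smallest, -1.77. With paclitaxel for 48 h the lowest ATPase difference on the deposited scale was -1.62.

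The ratio of ring to ATPase transcripts within a cell showed the same split without any scaling. The summed N of the 14 ring genes over that of the 6 ATPase genes had a median of 7.99 in control cells (SD over cells 2.24, range 5.89 to 17.0). It was 12.2 (SD 7.07, range 5.96 to 54.8) with paclitaxel for 16 h, with 52 of 56 cells above the control median. It was 9.24 (SD 2.43) at 48 h, 9.33 (SD 3.78) and 8.51 (SD 2.28) with celecoxib for 2 and 16 h, and 9.80 (SD 2.34) with the combination. With sums pooled over the cells the ratios were 8.01, 11.3, 9.17, 9.00, 8.42 and 9.54. The number of genes detected moved with the log2 of this ratio in some conditions. Pearson's r was -0.43 over the control cells and -0.34 with paclitaxel for 16 h. It was -0.005 with paclitaxel for 48 h, -0.38 and 0.26 with celecoxib for 2 and 16 h, and -0.03 with the combination. In cells with at least 5500 genes detected the medians were 7.95 in control (45 cells) and 12.1 with paclitaxel for 16 h (49 cells). They were 9.24 with paclitaxel for 48 h, 8.88 and 8.54 with celecoxib for 2 and 16 h, and 9.78 with the combination. Among the cells with paclitaxel for 16 h the ratio was 11.0 in the 23 cells of the authors' control state and 13.4 in the 31 of their suppressive state.

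**Figure D3:**
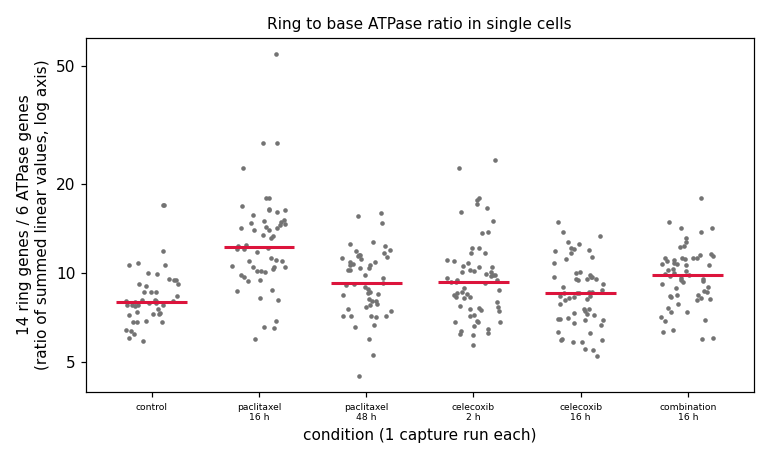
Each point is 1 cell, the y axis (log scale) is the summed linear value of the 14 ring genes divided by that of the 6 base ATPase genes, and the line is the median of a condition. The median is 12.2 with paclitaxel for 16 h, 7.99 in control cells and between 8.51 and 9.80 in the other treatments. The axis words on 1 capture run each are an assumption, as the number of captures was not given in the sources used here.

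The rest of the base and the lid followed the ATPases in part. The base subunits PSMD1, PSMD2 and PSMD4 were down in all 4 single-drug conditions. Their medians were -1.14 with paclitaxel for 16 h, -1.03 with celecoxib for 2 h and -2.19 with celecoxib for 16 h. At the same total 0, 1, 1 and 3 of the 3 were down. Over all genes tested 37.3, 26.6, 25.7 and 43.9% were down as deposited and 10, 5.78, 8.12 and 7.95% at the same total. PSMD4 differed by -1.16, -0.91, -1.03, -2.09 and 0.29. With paclitaxel for 16 h 4 of 8 lid subunits were down at the same total, namely PSMD3, PSMD6, PSMD11 and PSMD13, and the lid median was -0.53. PSMD14, the deubiquitinase of the lid, differed by -1.23, -1.29, -1.12, -2.34 and 0.13, and with celecoxib for 16 h by -1.04 at the same total. PSMD11 differed by -1.51 with paclitaxel for 48 h.

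PSMD7 and PSMD8 departed from the lid with celecoxib for 16 h. PSMD7, the partner of PSMD14, had mean E-values of 5.49 in control cells, 4.77 and 4.79 with paclitaxel, 4.94 and 4.43 with celecoxib, and 5.94 with the combination. Its differences were -0.72, -0.70, -0.55, -1.06 and 0.45, and at the same total 0.06, -0.09, 0.01, 0.29 and -0.23. PSMD8 differed by -1.17 with celecoxib for 16 h and by 0.20 at the same total. The other 6 lid subunits were all down there on both scales (43.9 and 7.95% of all genes tested). As a share of the members' sum, PSMD7 had a median of 1.14% in control cells and 2.15% with celecoxib for 16 h, and PSMD8 1.58% and 2.60%. The 8 lid genes together took a median of 9.23% of the members' sum in control cells (SD over cells 1.35). It was 7.48% (SD 1.40) with paclitaxel for 16 h and 12.0% (SD 2.00) with celecoxib for 16 h. This part of the members' sum was thus below control with the former and above it with the latter. The lid genes themselves had a median difference of -1.96 with celecoxib for 16 h, or -0.67 at the same total.

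The base assembly chaperones PSMD5, PSMD9 and PSMD10 bind ATPase tails before the base is complete. PSMD9 differed by -1.11, -0.59, -0.81 and -0.90 with the single drugs and by 0.63 with the combination, and at the same total by -0.34, 0.01, -0.26, 0.44 and -0.05. It took a median of 0.870% of the members' sum in control cells and 1.78% with celecoxib for 16 h. PSMD10, known as the oncoprotein gankyrin, differed by -0.99, -0.44, -0.99, -1.83 and 1.01. With the combination its median cell was at 5.69, against 4.81 in control cells, and 9 of 59 cells were below the control mean. PSMD5 was scarce, with a control mean E-value of 2.27, and differed by -1.19, -1.10, -0.87, -0.93 and -0.04.

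PSME1 stood apart from the other members in most treatments. PSME1 and PSME2 together form an activator ring that opens the core without ATP. The mean E-value of PSME1 was 5.46 in control cells, 5.15 and 5.64 with paclitaxel for 16 and 48 h, 5.65 and 4.84 with celecoxib for 2 and 16 h, and 6.75 with the combination. Its lowest, median and highest cells were 2.95, 5.51 and 7.42 in control, 3.20, 5.76 and 7.11 with paclitaxel for 48 h, and 3.62, 6.78 and 8.63 with the combination, so that the groups overlapped broadly. The differences were -0.31, 0.18, 0.18, -0.63 and 1.28, the highest of all members in 4 of the 5 comparisons, with PSME4 (-0.24) above it with paclitaxel for 16 h. With cell totals equalized they were 0.46, 0.79, 0.74, 0.72 and 0.58, past the limit in 3. Cells below the control mean on that scale numbered 18 of 56, 5 of 53, 12 of 63, 12 of 61 and 13 of 59.

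Within the proteasome transcripts, PSME1 took a median of 1.04% in control cells (SD over cells 0.834). It took 1.58% (SD 1.57) and 2.36% (SD 1.21) with paclitaxel, 2.35% (SD 1.58) and 2.68% (SD 1.94) with celecoxib, and 2.03% (SD 1.34) with the combination. The differences of PSME2 were lower than those of PSME1 in all 5 comparisons. It differed by -0.56, -0.60, -0.64, -1.92 and 0.48, and at the same total by 0.24, 0.03, -0.07, -0.55 and -0.21. The median ratio of PSME1 to PSME2 within a cell was 0.295 in control cells and 0.317, 0.496, 0.509, 0.725 and 0.494 in the treatments. The genes lie within 11407 bases of each other between their annotated starts, and both promoters held the ISRE core and TGACNNNGC as printed above. An exon of PSME1 overlaps EMC9 on the opposite strand, and the use of strand in the counting was not given in the sources used here. EMC9 had mean E-values of 3.12, 2.10, 2.98, 2.50, 2.11 and 3.60, and at the same total of 2.66, 2.18, 3.01, 2.42, 2.67 and 2.65. Its part in the PSME1 values was not tested.

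The other activators and the inhibitor were low and variable. PSME3, a nuclear activator, had a control mean E-value of 4.29 and differed by -1.34, -1.25, -1.69, -1.73 and -0.42, and it was down at the same total in all 5 comparisons (-0.73, -0.72, -1.23, -0.61 and -0.95). PSME4, from a control mean of 1.62, differed by -0.24 and -0.25 with paclitaxel, -0.56 with celecoxib for 2 h and 0.43 with the combination, and was past the limit with celecoxib for 16 h. PSMF1, which inhibits the core, had the largest difference of all members with paclitaxel for 16 h on the E-value scale. By the ratio of linear means PSMD3 (0.314), PSMC4 (0.336) and PSMD5 (0.360) were lower there than PSMF1 (0.406). The mean E-value of PSMF1 was 4.34 in control cells, 2.50 and 3.22 with paclitaxel, 2.76 and 2.77 with celecoxib, and 4.13 with the combination. It was listed at 0 in 0 of 46 control cells, 8 of 56 and 0 of 53 cells with paclitaxel, 8 of 63 and 8 of 61 with celecoxib, and 7 of 59 with the combination. The differences were -1.84, -1.12, -1.58, -1.57 and -0.21, and at the same total -1.24, -0.55, -1.11, -0.42 and -0.74.

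The core assembly chaperones, which help the alpha ring to close, were led by PSMG1. On the E-value scale it had 1 of the 3 largest differences of all members at both paclitaxel times (-1.71 and -1.65), though not at 16 h by the ratio of linear means (0.398). PSMG1 differed by -1.45 and -2.45 with celecoxib and 0.22 with the combination. The median PSMG1 cell stood at 5.97 in control, 4.19 and 4.17 with paclitaxel, 4.49 and 3.37 with celecoxib and 6.01 with the combination. PSMG1 was also down at the same total in the 4 single-drug conditions (-0.98, -1.05, -0.90 and -1.20). PSMG2 differed by -0.85, -0.92, -0.86, -1.69 and 0.30, and was not past the limit at the same total in any of the 5 comparisons. PSMG3 was lower with the combination at the same total (-0.90) and not with celecoxib for 16 h (0.01). PSMG4 differed by -0.44 with paclitaxel for 16 h and by -2.13 with celecoxib for 16 h.

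**Figure D4:**
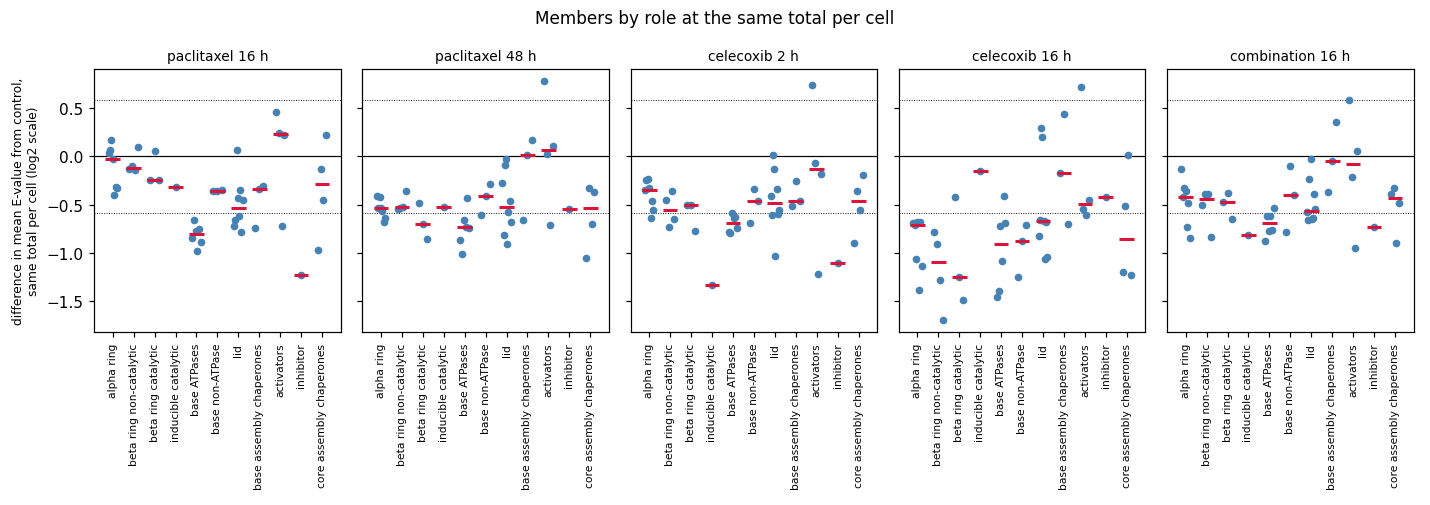
Each point is 1 member, grouped by role on the x axis, the y axis is the difference in mean E-value from control at the same total per cell (log2 scale), the red dashes are medians and the dotted lines the limit of 0.585 on either side. With paclitaxel for 16 h the 6 ATPases lie between -0.98 and -0.66 while the 7 alpha ring genes lie between -0.40 and 0.17.

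The combination was also set against each drug alone at the same time point. On the deposited scale 41 of 44 members were higher than with paclitaxel for 16 h (62.5% of all genes tested) and 0 lower (0.0311%), with a median difference of 1.22 beside 0.80 over all genes. All 44 were higher than with celecoxib for 16 h (66%) and 0 lower (0.0414%), with a median of 2.32 beside 0.88. With cell totals equalized, 2 were up against paclitaxel (9.57%), PSMD10 (0.66) and PSMG1 (0.59), and 2 were down (1.64%), PSMB4 (-0.93) and PSMG4 (-0.71). Against celecoxib 11 were up (5.03%) and 2 down (4.39%). PSMD10 (1.05), PSMB3 (0.89), PSMB6 (0.87) and PSMB4 (0.86) were highest, and PSMB10 (-0.66) and PSMG3 (-0.91) were the members that were down. The members up with the combination against control were PSME1 (1.28), PSMD10 (1.01), PSMD8 (0.66) and PSMD9 (0.63), and at the same total none of the 4 passed it (0.58, 0.35, -0.03 and -0.05). On the E-value scale the lowest differences with the combination were those of PSME3, PSMB10 (-0.38) and PSMG3 (-0.33).

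**Figure D5:**
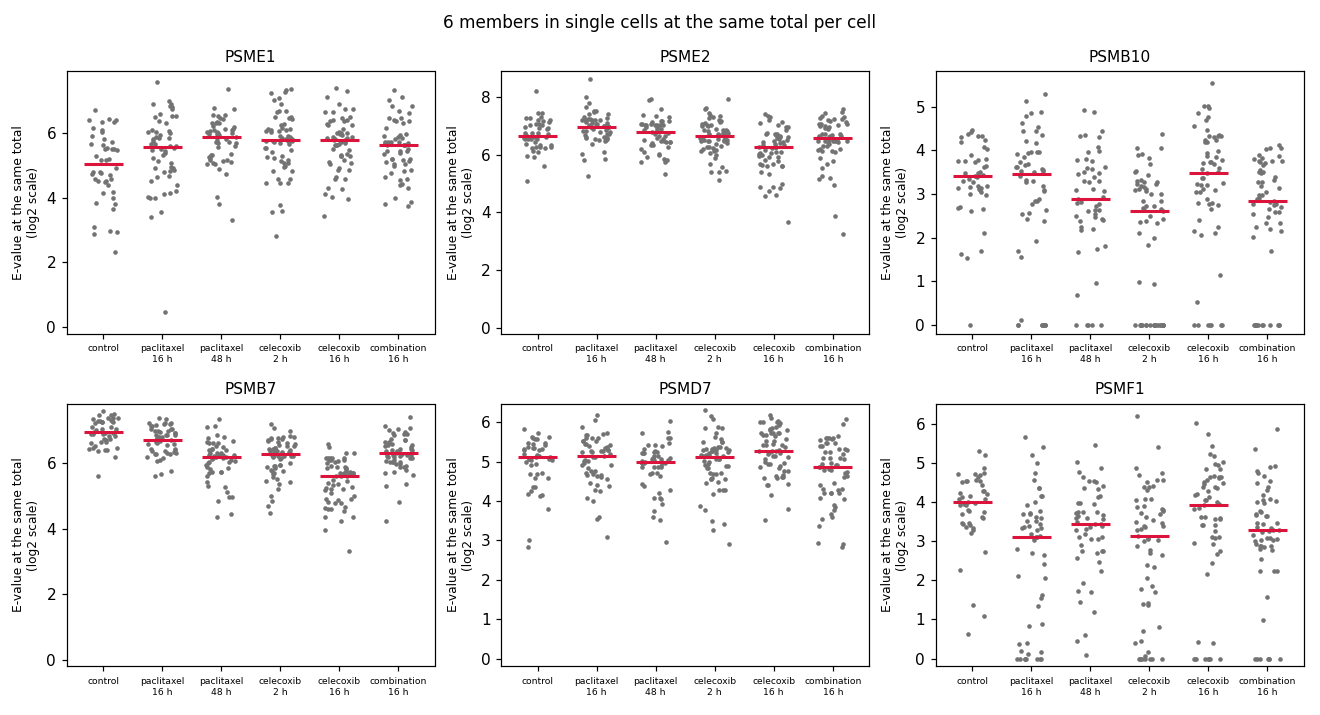
Each point is 1 cell, the y axis is the E-value (log2 scale) at the same total per cell for PSME1, PSME2, PSMB10, PSMB7, PSMD7 and PSMF1, and the line is the median of a condition. The median of PSMB7 is 6.94 in control cells and 5.62 with celecoxib for 16 h, that of PSME1 is 5.04 and 5.77, and that of PSMD7 is 5.13 and 5.28.

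Between cells of a condition the members were steadier than most genes. The median CV of linear values at the same total over the members was 37.0% in control cells, beside 121% over all genes tested, and it was 50.1 and 50.4% with paclitaxel, 47.4 and 58.7% with celecoxib and 48.1% with the combination. All genes lay between 130 and 147% in the treatments, and genes of high level have lower CV for counting reasons alone. PSMB1 was the steadiest member in control cells (20.5%) and PSME4 the most variable (99.1%). A proteasome score, the mean over members of the E-value minus its control mean, had medians of -1.11 (SD over cells 0.77), -0.93 (SD 0.62), -1.08 (SD 0.61), -2.03 (SD 0.49) and 0.13 (SD 0.69) in the 5 treatments. With the combination it was 0.25 in the cells of library block 1 and -0.16 in those of block 3, so its sign depended on the block. Across the cells of a condition this score went with the cell total, with Pearson's r between 0.90 and 0.96. Its medians at the same total were -0.26, -0.43, -0.50, -0.72 and -0.42, and the members correlated weakly with each other. The median r over 946 pairs was between 0.02 and 0.11 within conditions, beside 0.00 to 0.02 for members with all genes, over cells that share a condition and its depth.

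The cell states of the authors' annotation and the library blocks split some conditions. With paclitaxel for 48 h the share was 2.44% in the 28 cells of the control state and 2.12% in the 25 of the suppressive state. With celecoxib for 2 h it was 2.34% in 26 and 2.35% in 33 such cells. With paclitaxel for 48 h it was 2.27% in the 22 cells of block 2 and 2.38% in the 31 of block 4. With the combination it was 2.29% in the 34 cells of block 1 and 2.36% in the 25 of block 3. All these shares lay below the control median, and the authors assigned the states from the same expression values, with a classifier trained on control, 16 h celecoxib and combination cells.

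Other genes of the ubiquitin and proteasome pathway had medians nearer to 0 than the members in the 4 single-drug conditions, and a higher median with the combination on the deposited scale. Of 38 looked for, 36 were listed, and 21, 19, 17, 27 and 0 were down and 0, 0, 0, 0 and 5 up in the 5 comparisons with control on the deposited scale. Over all genes tested 37.3, 26.6, 25.7, 43.9 and 1.76% were down, and 30.4% were up with the combination. The medians of the pathway genes were -0.79, -0.64, -0.54, -1.23 and 0.26, and at the same total -0.17, -0.20, -0.16, -0.20 and -0.22. Several of these genes had a low level, where the E-value scale understates a change. As log2 ratios of linear means the pathway medians were -0.83, -0.76, -0.66, -1.48 and 0.54. Those of the members were -0.98, -1.07, -1.05, -2.06 and 0.30. ADRM1, a ubiquitin receptor of the base, differed by -1.86 with paclitaxel for 16 h and TXNL1, a thioredoxin bound to the regulatory particle, by -2.49 with celecoxib for 16 h. POMP, which matures the core, differed by -0.81, -1.01, -0.86, -2.26 and 0.24. The 5 up with the combination were UBE3A (1.07), PAAF1 (0.90), UBA6 (0.84), NFE2L2 (0.80) and SEM1 (0.79). NFE2L1 was at a low level, 0.83 in control cells, and differed by -0.02, 0.10, 0.40, 0.02 and 0.49. At the same total its differences were 0.28, 0.31, 0.61, 0.59 and 0.17, past the limit at both celecoxib times, and its ratio of linear means with the combination was 2.51.

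The CCT chaperonin and the cytosolic ribosome were set beside the proteasome as other large complexes. The 8 CCT genes had a control median of 6.39 and medians of -1.16, -1.06, -1.20, -1.90 and 0.14, which at the same total became -0.37, -0.45, -0.63, -0.53 and -0.54. The 82 ribosomal protein genes, with a control median of 7.47, had medians of -0.51, -0.55, -0.36, -1.65 and 0.64, and at the same total of 0.30, 0.08, 0.21, -0.27 and -0.06. The proteasome medians thus lay near those of CCT and below those of the ribosome in each of the 5 comparisons. Being described without a test, the pattern cannot be called particular to the proteasome.

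Some members share sequence or position with other genes. On GENCODE version 44 all 45 rows were matched, and the 44 members lay on 17 chromosomes, with 7 each on chromosomes 14 and 17. Exons of 17 members overlap a gene on the opposite strand, and 17 have named pseudogenes, 44 in all. PSMC1 has 13 and PSME2 has 6, so that reads of these genes could have been split in the counting. Of the overlapping partners, NRDE2 over PSMC1 had mean E-values between 0.81 and 1.47, FTSJ3 over PSMC5 between 0.86 and 1.55, RNF31 over PSME2 between 0.35 and 0.84, and BECN1 over PSME3 between 2.38 and 3.53. PSMC3IP, the recombination protein kept apart, had mean E-values of 2.34, 1.65, 1.27, 1.90, 0.98 and 1.71 and was detected in 78.3% of control cells.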

How the data were processed

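Single A2780 cells were captured on the Fluidigm C1 system and sequenced with Smart-seq2. The labels list 372 cells, each a library of its own, and the table of values holds 338. The authors used Trim Galore for trimming and RSEM 1.3.0 through Bowtie2 for TPM, against hg38 transcripts (GENCODE version 28) to which 3 spike-in sequences were added, and divided by the highest spike-in RNA. They removed cells low in housekeeping genes and retained a gene where more than 30% of cells in some condition had it. The values deposited by the authors are log2 values, with E defined as log2(N/10 + 1), to 3 decimals. Whether counting used strand was not given in the sources used here, and reads per cell are unknown.

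From these E-values N was recovered, and means over cells were compared at a limit of 1.5-fold for the 9655 genes past the 30% filter. The E-value scale understates the change of low genes. At the same total, N of each cell was scaled to the median total of all cells, with totals taken over the genes listed. The steps were tested on simulated data. Clusters were not made, and doublets were not called, as this takes counts. The members, the lists, the role groups and the rule for named genes were chosen with earlier results of these data known. Named were the highest member of each role, the catalytic subunits, PSMD4 and PSMD14. The 3 highest and 3 lowest differences per treatment were named too, except the lowest ATPase with paclitaxel for 48 h, given by value alone. Members past the limit at the same total were named, or in the larger groups given by counts and in the heat map. Others were named after their values were seen. The alternatives were the same total, linear means, medians over cells, a pseudocount of 1, no filter or a 50% filter, a total without the 50 most abundant genes, library blocks, and, chosen after seeing the data, cells with at least 5500 genes and leaving out 2 cells of another state. The software was matplotlib 3.10.9, scipy 1.17.1, pandas 2.3.3 and numpy 2.4.6 under Python 3.11.15.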

Additional observations from a re-analysis of the deposited data

How the results depend on the processing

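The spike-in scaling decided most counts. At the same total per cell 14, 17 and 18 members were down with paclitaxel for 16 h, paclitaxel for 48 h and celecoxib for 2 h, and the combination had 17. Up were 1 with paclitaxel for 48 h, 1 at each celecoxib time and 0 with the combination. Against paclitaxel the combination then had 2 up and 2 down, and against celecoxib 11 up and 2 down. The score went to -0.26 with paclitaxel for 16 h, -0.72 with celecoxib for 16 h and, with its sign turned, -0.42 with the combination. For the combination against control, linear means gave 11 up, against 6968 of 9655 genes tested, and a pseudocount of 1 gave 4 down. Its block 1 cells alone gave 7 up, and its block 3 cells 2 down and a score of -0.16, of the opposite sign. The share of all genes was not computed for the pseudocount or the blocks. Apart from the scaling, the cause was not tested. The 22 alternative values of the share and the 16 of the PSMB10 ratio all moved by less than the spread over cells. For the ratio to the 3 constitutive catalytic subunits this says little, as that spread was wide. Its SD over cells was 1.21 beside a ratio of 1.07% with celecoxib for 2 h, and 0.84 beside 1.52% in control cells. No paired analysis was possible because the labels name no replicate of a condition, and for the same reason no replicate could be left out. Reads per cell are unknown, so 0 may be a failed estimate.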
